A study of Homo sapiens with 4 samples.

Results

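The genes described here are the protein-coding genes whose symbol is ZNF followed by a number, most of them zinc finger transcription factors, in A549 cells with or without knockdown of the long noncoding RNA USP2-AS1. They were chosen by biotype and symbol from the deposited table of genes that differ between both conditions, with 1 ZNF gene left out, which gave 93 of 6828 listed genes. Of these 93 genes, 29 lie on chromosome 19 and 64 on other chromosomes. The label holds only in part, since not every ZNF protein binds DNA: ZNF598, for example, is a ubiquitin ligase of the ribosome.

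A549 is a human lung adenocarcinoma cell line of epithelial origin. RNA-seq was performed to find genes that depend on USP2-AS1. The shctrl group held 2 libraries of A549 cells infected with lentivirus carrying a control short hairpin RNA, and the shUSP2-AS1 group held 2 libraries of A549 cells infected with lentivirus carrying a hairpin against USP2-AS1. According to the methods, both hairpins were expressed from the same vector and the libraries were biological replicates, and which of the USP2-AS1 hairpins was sequenced is not stated in the sources used here, so an effect of USP2-AS1 and an effect of that single hairpin on other transcripts cannot be told apart. The knockdown itself was low in reads: USP2-AS1 (ENSG00000245248, GRCh38 chromosome 11, 119364359 to 119526664, plus strand) had 24 and 22 reads in shctrl and 2 and 7 in shUSP2-AS1, or normalized read counts of 23.7 ± 0.698 and 4.13 ± 2.87 (SD, n = 2 each). Reads on the listed genes came to 12330115 and 10772788 in shctrl and to 11715962 and 14120472 in shUSP2-AS1.

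ZNF genes make up the largest family of transcription factor genes in the human genome, and many stand in clusters on chromosome 19 that arose by tandem duplication. Most of the proteins carry a row of C2H2 zinc fingers, short folds held by a zinc ion that read DNA in series, and some bind RNA or other proteins instead. Many also carry a KRAB domain, which recruits the scaffold protein TRIM28 (KAP1). TRIM28 in turn brings the histone H3K9 methyltransferase SETDB1, HP1 proteins and the NuRD deacetylase complex, and the chromatin so formed silences transposable elements and other targets.

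Knockdown of USP2-AS1 was accompanied by lower levels of most listed ZNF genes. All 93 were tested with limma on log2(normalized read count + 1), and 71 fell and 22 rose at an adjusted p below 0.05. Among all 6812 genes tested, 49.4% fell and 50.6% rose by the same rule, and among protein-coding genes 49.6% and 50.3%. The median log2 fold change of the ZNF genes was -0.50, with the middle 50% between -0.73 and -0.27, and that of the 6269 other protein-coding genes tested was 0.19. Among those other genes 3087 (49.2%) fell. In 71 ZNF genes both shUSP2-AS1 libraries lay below both shctrl libraries, and in 22 both lay above, against 49.3% and 50.6% of all genes tested and 49.6% and 50.4% of the protein-coding ones. The table lists only genes past the submitters' own threshold for this contrast, so passing the test carries no information, and the share of genes that fell is what can be read against the background. Most changes were small, as 77 of the 93 ZNF genes changed less than 2-fold.

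The summed reads of the family moved the same way. The 93 ZNF genes together took 4588 and 4782 of every 1000000 reads on listed genes in shctrl, and 3797 and 3707 in shUSP2-AS1. Both shUSP2-AS1 libraries were thus lower, and the gap between groups was wider than that within either group. In RNA from whole cultures, fewer cells that express a gene and less of its RNA per cell cannot be told apart.

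**Figure D1:**
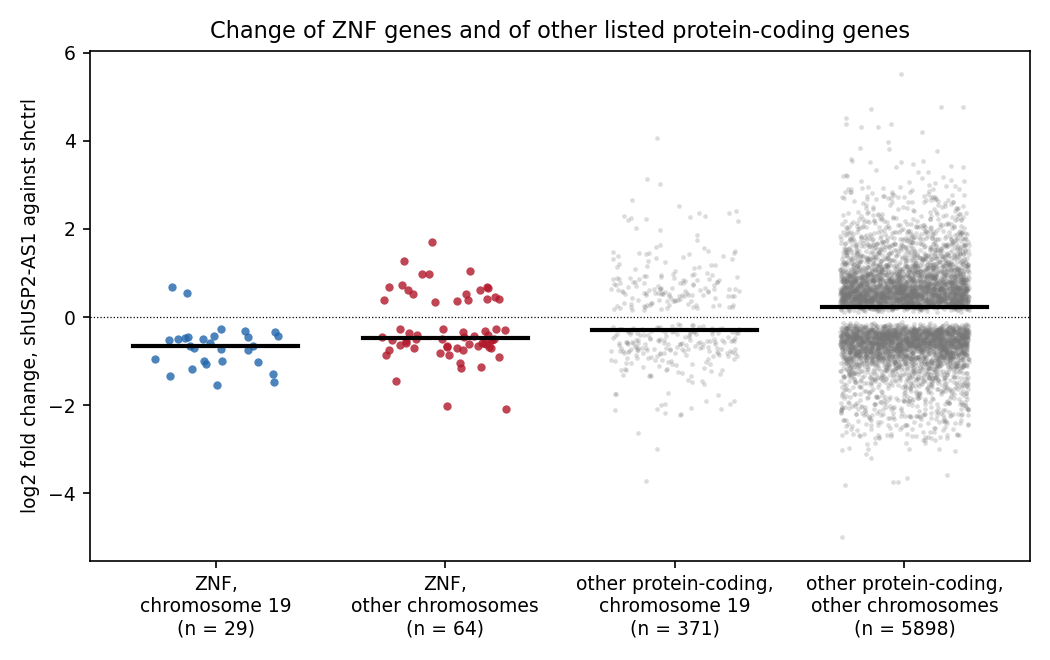
Log2 fold change of shUSP2-AS1 against shctrl (y axis, log2 of normalized read count + 1) for each tested gene, in 4 groups: ZNF genes on chromosome 19 (n = 29) and elsewhere (n = 64), and other protein-coding genes on chromosome 19 (n = 371) and elsewhere (n = 5898). Points are genes and bars are medians, which lie at -0.65, -0.48, -0.29 and 0.22, and the empty band around 0 reflects that only genes past the submitters' threshold are listed.

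The level of a gene also bore on these shares. Among other protein-coding genes, the share that fell was 25.4% of 503 genes with a mean normalized read count of 10 to 100, 43.8% of 936 genes from 100 to 300, 55.3% of 2271 from 300 to 1000, and 50.6% of 2559 at 1000 and above. The ZNF genes fell in 7 of 9, 22 of 28, 32 of 41 and 10 of 15 cases in the same ranges. The share of ZNF genes that fell was therefore above that of other genes in each range, by the widest margin in the lowest range, which holds only 9 ZNF genes. The median of the other protein-coding genes turned from 0.19 to -0.22 when only genes with a mean of at least 100 were kept, while 64 of the 84 ZNF genes kept there fell, with a median of -0.49.

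**Figure D2:**
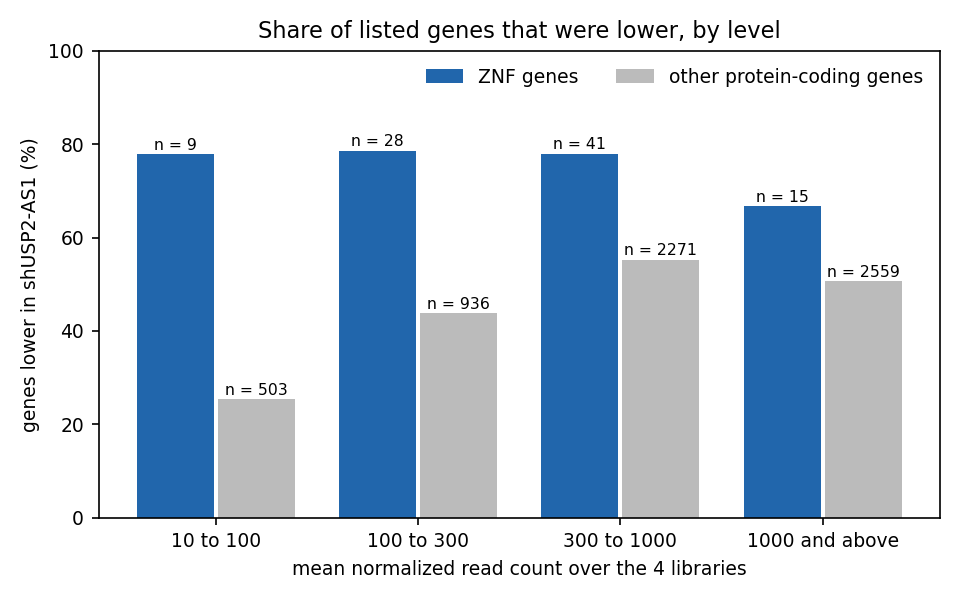
Share of listed genes that were lower in shUSP2-AS1 (y axis, percent) by mean normalized read count over the 4 libraries (x axis), for ZNF genes (blue) and other protein-coding genes (grey), with the number of genes above each bar. The blue bars stand at 66.7% to 78.6% in every range, and the grey bars range from 25.4% to 55.3%.

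With a change of at least 2-fold added to the adjusted p below 0.05, 13 ZNF genes were called lower and 3 higher, against 13.5% and 16.1% of all genes tested. These numbers were 10 and 5 with upper quartile scaling, 17 and 2 with RLE and with DESeq2, 8 and 1 with a mean of at least 100, and 3 and 1 in the test against a log2 fold change of 1. The libraries of the groups did not overlap in any of the 16 genes. The same held for nearly all genes tested (49.3% lower and 50.6% higher), so this adds nothing. In every alternative that gave a value, other than the test against a log2 fold change of 1, 10 of the 16 kept the call, and ZNF10, ZNF117, ZNF256, ZNF551, ZNF614 and ZNF624 lost it in at least 1.

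ZNF367, a C2H2 factor, fell the most. This gene (ENSG00000165244) lies on GRCh38 chromosome 9, 96385941 to 96418370, on the minus strand. The shctrl libraries had normalized read counts of 357.5 and 367.1, and the knockdown libraries 89.38 and 80.12. Both knockdown libraries stood far below both controls, at a log2 fold change of -2.08 ± 0.14 (SE), limma adjusted p = 1.87e-10. E2F1, the S phase transcription factor, was listed at 1280 and 1241 in shctrl and at 275.5 and 303.7 in shUSP2-AS1. For this reason the promoters of the ZNF genes, as given by RefSeq for GRCh38.p14 from 250 bases before to 50 after the gene start, were searched on both strands for the E2F words TTTCCCGC, TTTCGCGC, TTTGCCGC and TTTGGCGC. Of the 93 genes, 78 had a promoter entry, and 3 of the 78 (3.85%) held a word. Of all 27305 promoters 3.33% held one, as did 5.39% of the promoters of listed protein-coding genes and 12% of those called lower. The share in ZNF promoters was thus near that of all promoters. All 3 genes fell, as did 62 of the 78 ZNF genes with a promoter entry, so their direction adds nothing. The 3 windows are shown as the matches found, with the matched bases in capitals on the strand of the gene, 5′ to 3′. A match describes letters and not a site that is bound.
ZNF367, chr9:96418380-96418409, minus strand: ccagGCGCGAAAtgtaacGCGGGAAAagcc
ZNF687, chr1:151281319-151281348, plus strand: ggcaacaaagcGCGGGAAAactcgaccttg
ZNF638, chr2:71331606-71331635, plus strand: tttttttttttTTTGCCGCacgccttcgcc

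The ZNF367 promoter held a pair of words, which start 35 and 21 bases before the RefSeq start. The single words of ZNF687 and ZNF638 start 192 and 165 bases before the RefSeq starts of those genes. The start of ZNF638 in the deposited table differs, and the window printed for it begins 55045 bases downstream of that start, inside the gene. The log2 fold changes of ZNF687 and ZNF638 were -0.26 and -0.33, and no relation between the words and the change was tested.

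ZNF32 (ENSG00000169740, chromosome 10, 43643860 to 43648881, minus strand), a small C2H2 protein, was the other ZNF gene that fell more than 4-fold. It was measured at 194.2 and 231.9 in shctrl and at 50.48 and 52.83 in shUSP2-AS1. Its log2 fold change was -2.02 ± 0.17 (SE), limma adjusted p = 7.43e-09. Exons of the antisense RNAs ZNF32-AS2 and ZNF32-AS1 cover 21.8% and 16.2% of its exonic bases, and without a stated strand setting their reads cannot be told apart from those of ZNF32 there. ZNF488, a factor known from oligodendrocyte differentiation, fell from 317.9 and 333.0 to 145.1 and 143.5, a log2 fold change of -1.17.

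Of the 23 genes with a KRAB domain in the deposited annotation, 7 were called lower, against 13 of all 93 ZNF genes and 13.5% of all genes tested. Among the 7, ZNF10, ZNF256, ZNF551, ZNF614 and ZNF624 lost the call in at least 1 alternative. The annotation names no domain for 56 of the 93 genes, of which 4 were called lower. These counts therefore do not set KRAB genes against ZNF genes without KRAB. ZNF10, also known as KOX1, carries the KRAB domain used in most CRISPR interference fusions. It was measured at 69.57 and 70.33 in shctrl and at 31.55 and 35.22 in shUSP2-AS1 (log2 fold change -1.05 ± 0.24, limma adjusted p = 0.000547), and it shares 9.62% of its exonic bases with another protein-coding gene model on the same strand. ZNF624 on chromosome 17 fell from 85.03 and 70.33 to 43.11 and 28.17, and its replicates were farther apart than those of ZNF10. ZNF519 on chromosome 18, for which that annotation names no domain, was measured at 57.01 and 53.85 and at 21.03 and 18.49. The latter values rest on 20 and 21 reads in the knockdown libraries.

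The largest rise was that of ZNF385A (ENSG00000161642, chromosome 12, 54369133 to 54391298, minus strand). ZNF385A, also called HZF, is an RNA-binding zinc finger protein that is known to bind p53 and to steer it to cell cycle arrest genes. Its normalized read count was 372.0 and 352.8 in shctrl and 1143 and 1233 in shUSP2-AS1. Both knockdown libraries were well above both controls, at 328% of the control mean, with a log2 fold change of 1.71 ± 0.08 (SE), limma adjusted p = 2.30e-12.

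ZNF365, which is known for a role in genome stability, rose from 48.31 and 46.16 to 124.1 and 107.4 (log2 fold change 1.27 ± 0.20, limma adjusted p = 1.30e-05). ZNF365 shares 25.4% of its exonic bases with another protein-coding gene model of GENCODE. ZNF117 on chromosome 7 rose from 44.45 and 35.17 to 77.82 and 88.04 (log2 fold change 1.05 ± 0.23, limma adjusted p = 0.000367). The endogenous retrovirus gene ERV3-1, which stands beside ZNF117, was also listed and rose, with a log2 fold change of 0.78. ZNF117 shares 7.71% of its exonic bases with ERV3-1, so a part of its reads cannot be assigned with certainty. Its 2-fold call was lost with RLE scaling (0.93), with DESeq2 (0.94), without shctrl replicate 2 (0.88) and without shUSP2-AS1 replicate 2 (0.96), all log2 fold changes. All 3 genes that rose at least 2-fold lie outside chromosome 19, as do 64 of the 93 ZNF genes. Of 371 other protein-coding genes on chromosome 19, 48 were called higher, against 16.1% of all genes tested.

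**Figure D3:**
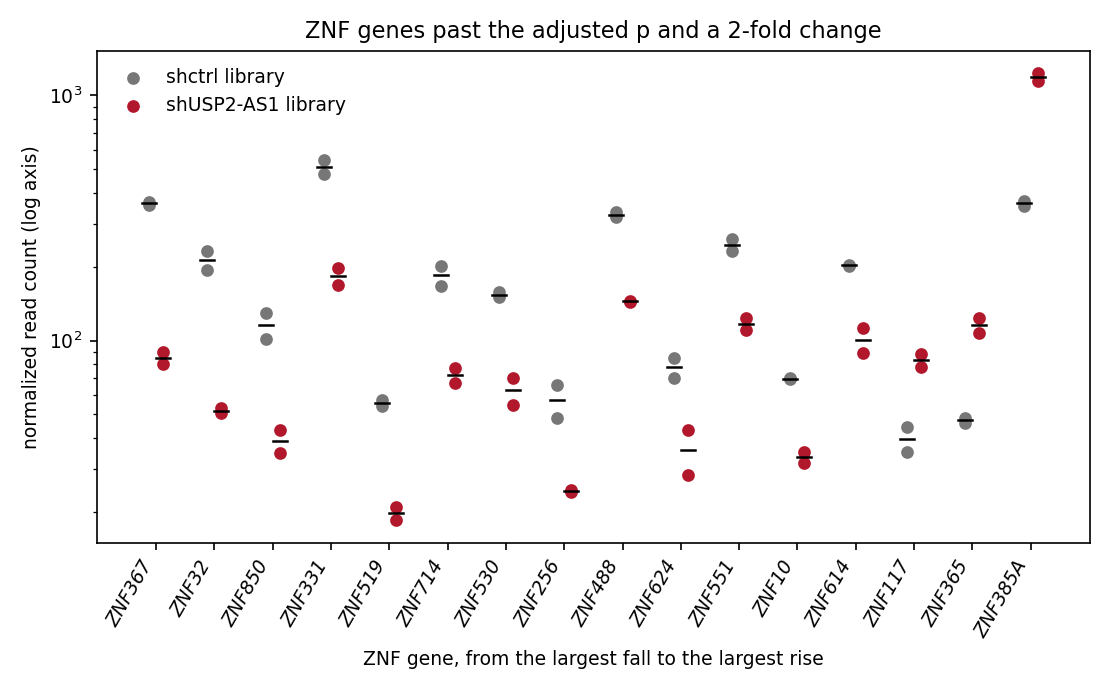
Normalized read count (y axis, log axis) of each library for the 16 ZNF genes past the adjusted p and a 2-fold change, from the largest fall to the largest rise (x axis). Grey points are the 2 shctrl libraries, red points the 2 shUSP2-AS1 libraries and bars the group means. The red and grey points do not overlap for any gene, as for nearly all genes tested (49.3% lower and 50.6% higher). ZNF385A is the highest, at 1143 and 1233 in shUSP2-AS1.

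The genes on chromosome 19 were next compared with those elsewhere. On chromosome 19, 27 of 29 listed ZNF genes fell (93.1%) and 2 rose, with a median log2 fold change of -0.65 and a range of -1.54 to 0.67. On other chromosomes 44 of 64 fell (68.8%) and 20 rose, with a median of -0.48. Other protein-coding genes fell in 208 of 371 cases on chromosome 19 (56.1%) and in 2879 of 5898 elsewhere (48.8%). The share that fell was thus higher on chromosome 19 than on the others pooled in both sets of genes, and the difference between the sets was not tested. It was not the highest of single chromosomes. Other protein-coding genes fell in 59.6% of cases on chromosome 16, 58.4% on 18 and 56.7% on 17. All listed ZNF genes fell on 6 chromosomes, which hold 1 to 4 of them each. Among genes with a mean of at least 100, 23 of 25 ZNF genes on chromosome 19 fell (92.0%), as did 41 of 59 elsewhere (69.5%) and 57.5% of other protein-coding genes on chromosome 19. The medians gave another order: the median of chromosome 19 minus that of the other chromosomes was -0.18 for ZNF genes, -0.28 without shUSP2-AS1 replicate 2 and -0.05 for those with a mean of at least 100, and for other protein-coding genes it was -0.50, from -0.29 on chromosome 19 and 0.22 elsewhere. The gap between the median log2 levels of the ZNF genes on chromosome 19 and elsewhere had an SD of 0.151 between replicate libraries (pooled over both groups, n = 2 each), about as large as the -0.18.

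Summed reads were compared next. Chromosome 19 ZNF genes took 1241 and 1268 of every 1000000 reads on listed genes in shctrl and 865.2 and 860.7 in shUSP2-AS1. Those elsewhere took 3346 and 3515 in shctrl and 2932 and 2847 in shUSP2-AS1. In both sets the knockdown libraries were lower than both controls.

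Chromosome 19 holds far more ZNF genes than were listed. GENCODE release 44 annotates 249 protein-coding ZNF genes there by the same symbol rule, of which 29 (11.6%) were listed, and 265 elsewhere, of which 64 (24.2%) were listed. Of 1227 other protein-coding genes on chromosome 19, 371 (30.2%) were listed. The ZNF genes outside the table were not analysed here.

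Of the 13 ZNF genes called lower, 7 lie on chromosome 19, among 29 tested there, and 6 elsewhere, among 64. Of 371 other protein-coding genes on chromosome 19, 49 were called lower, as were 13.5% of all genes tested. ZNF850 fell the most among these, from 129.5 and 101.1 in shctrl to 34.70 and 43.14 in shUSP2-AS1 (log2 fold change -1.54 ± 0.22, limma adjusted p = 4.70e-06). ZNF331, an imprinted gene, was the most abundant of the 7, at 477.3 and 542.9 in shctrl and at 168.3 and 197.2 in shUSP2-AS1 (log2 fold change -1.48 ± 0.12, limma adjusted p = 2.13e-09). Each of these genes showed knockdown libraries at well under the lower control library. The remaining 5 were ZNF714 at -1.34, ZNF530 at -1.30, ZNF256 at -1.17, ZNF551 at -1.06 and ZNF614 at -1.01, all log2 fold changes.

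The 2 exceptions on chromosome 19, named for that reason after their values were seen, were ZNF358 and ZNF181. ZNF181, a KRAB gene, was measured at 165.2 and 164.8 in shctrl and at 262.9 and 265.0 in shUSP2-AS1. ZNF358 was measured at 342.1 and 297.8 in shctrl and at 459.5 and 474.5 in shUSP2-AS1. Both rose without overlap between groups, as did 50.6% of all genes tested, with log2 fold changes of 0.67 and 0.55. ZNF358 shares 20.1% of its exonic bases with another protein-coding gene model and 14.1% with a long noncoding RNA, so its value is less certain.

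When genes less than 1 Mb apart were joined, the 29 chromosome 19 genes formed 13 groups, of which 1 held at least 5 listed ZNF genes. This group spans 57435325 to 58277495 on GRCh38, 0.842 Mb near the end of the long arm, where GENCODE annotates 27 ZNF genes and 11 other protein-coding genes. The 8 listed ZNF genes in it, ZNF749, ZNF550, ZNF530, ZNF551, ZNF587B, ZNF256, ZNF274 and ZNF544, all fell, with a median log2 fold change of -0.70. No other protein-coding gene that lies wholly within the span was listed. ZNF530 fell the most of the 8, from 149.8 and 158.3 to 54.68 and 70.43 (log2 fold change -1.30 ± 0.18, limma adjusted p = 3.90e-06), and ZNF551 went from 259.0 and 230.8 to 110.4 and 124.1. ZNF256, from 65.71 and 48.35 to 24.19 and 24.65, had the fewest reads of the group. Paralogs in such clusters share sequence, and how reads that map to more than 1 gene were counted is not given in the sources used here.

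**Figure D4:**
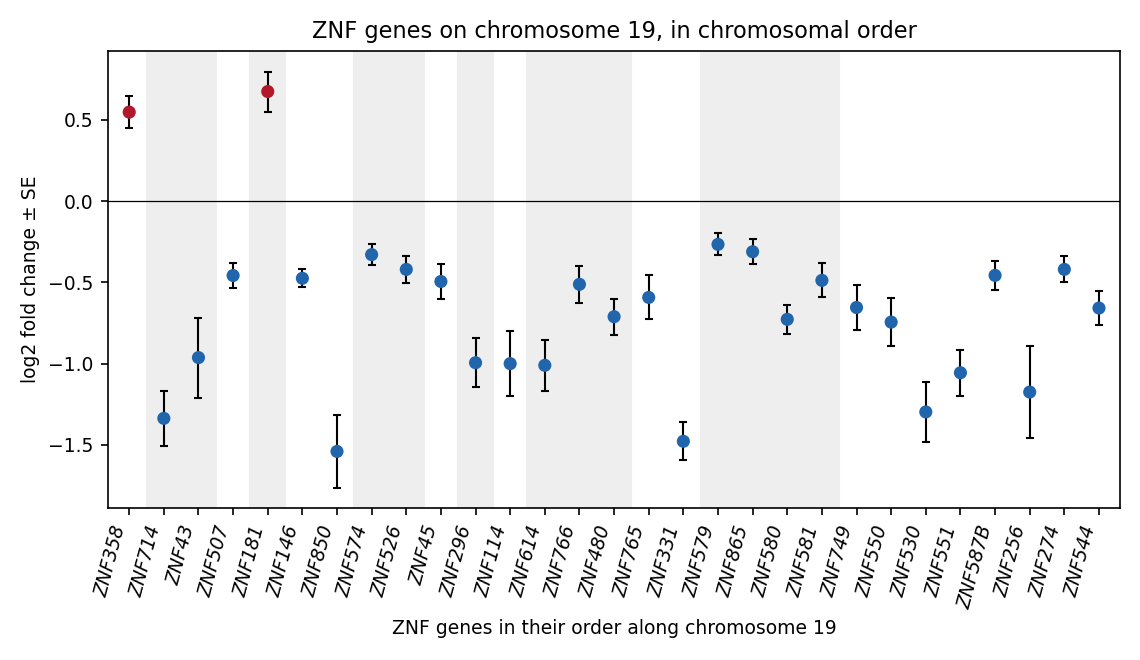
Log2 fold change of shUSP2-AS1 against shctrl with its SE (y axis) for the 29 listed ZNF genes of chromosome 19, in chromosomal order (x axis, evenly spaced and not to genomic scale), with alternating shading for groups of genes less than 1 Mb apart. ZNF358 and ZNF181 (red) lie above 0, and the other 27 genes (blue) lie below it, among them all 8 of the last group.

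Neighbours in smaller groups of chromosome 19 also fell. ZNF580, ZNF579, ZNF581 and ZNF865, between 55576774 and 55645623, all fell, with a median log2 fold change of -0.40. ZNF580 and ZNF581 share 407 exonic bases, 24.9% of those of ZNF581, so they are not independent measurements. ZNF614, ZNF480 and ZNF766, between 52012765 and 52325922, fell with a median of -0.71.

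A group on chromosome 7 did not move one way. Between 149126416 and 149867479, 6 of 8 annotated ZNF genes were listed, of which ZNF398, ZNF282 and ZNF777 fell and ZNF746, ZNF467 and ZNF862 rose. ZNF862, the gene of the 6 that rose the most, went from 120.8 and 175.8 to 278.7 and 295.8, and an antisense long noncoding RNA covers 26.3% of its exonic bases. On the whole of chromosome 7, 4 listed ZNF genes fell and 5 rose, and 44.7% of other protein-coding genes fell. Of the 19 chromosomes with a listed ZNF gene, 14 had more that fell than rose, and in 6 all fell. These 6, chromosomes 2, 5, 6, 9, 11 and 15, hold only 1 to 4 listed ZNF genes each. Over the 19 chromosomes, the share of other protein-coding genes that fell ranged from 42.0% on chromosome 6 to 59.6% on chromosome 16.

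The domain annotation deposited with the table named a KRAB domain for 23 of the 93 genes and zinc fingers without KRAB for 12, and named none for 56. The column is incomplete, since ZNF274, which is known to carry a KRAB domain, is not marked. Of the 23 marked KRAB genes, 18 fell (78.3%) and 5 rose, with a median log2 fold change of -0.66. Near this share, 76.3% of all 93 ZNF genes fell, against 49.4% of all genes tested. The marked KRAB genes on chromosome 19 fell in 14 of 15 cases with a median of -0.74, and those elsewhere in 4 of 8 with a median of 0.10. No domain was named for 8 genes on chromosome 19, of which 8 fell, and for 48 elsewhere, of which 33 fell. As the marks are incomplete, this split describes the marked genes and not all KRAB genes. Of all listed ZNF genes 93.1% fell on chromosome 19 and 68.8% elsewhere. Of the 12 genes with fingers and no KRAB mark, 11 fell, with a median of -0.51.

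By known role, the transcription factors ZNF384, a fusion partner in leukaemia, and ZNF148, which binds GC-rich promoters, were the 2 listed of 6 activators on the list. ZNF384 was measured at 634.8 and 682.5 in shctrl and at 485.8 and 422.6 in shUSP2-AS1. ZNF148 was measured at 438.7 and 446.2 and at 333.4 and 285.3. Both fell, with log2 fold changes of -0.54 and -0.52, where 76.3% of all 93 ZNF genes and 49.4% of all genes tested fell. An antisense long noncoding RNA covers 31.9% of the exonic bases of ZNF384.

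Of 9 ZNF genes listed for the cell cycle and genome integrity, 5 were in the table, of which 4 fell (ZNF367, ZNF830, ZNF207 and ZNF618) and ZNF365 rose. This share was near the 76.3% of all 93 ZNF genes that fell, against 49.4% of all genes tested. ZNF207, or BUGZ, carries the checkpoint protein BUB3 to kinetochores and was the ZNF gene with the most reads. It was measured at 3079 and 3153 in shctrl and at 2361 and 2469 in shUSP2-AS1 (log2 fold change -0.37 ± 0.05, SE), limma adjusted p = 4.72e-06. Its change was small, yet the groups lay several times farther apart than their replicates. ZNF830 went from 275.4 and 271.4 to 168.3 and 176.1, and ZNF618 from 1298 and 1440 to 1161 and 1095.

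Of 7 ZNF genes with a role on RNA, 4 were in the table, and 3 fell while ZNF385A rose. The share was near the 76.3% of all 93 ZNF genes that fell, against 49.4% of all genes tested. ZNF598, the ubiquitin ligase that marks collided ribosomes, was measured at 1361 and 1495 in shctrl and at 913.8 and 970.2 in shUSP2-AS1 (log2 fold change -0.60 ± 0.07, limma adjusted p = 3.01e-07). ZNF326, a part of the DBIRD complex that links splicing to RNA polymerase II, went from 699.6 and 704.4 to 422.7 and 414.7. ZNF638, which brings the HUSH silencing complex to retroviral DNA that has not integrated, went from 1854 and 1896 to 1485 and 1499. All 3 were lower in both knockdown libraries than in either control, as were 49.3% of all genes tested.

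Of 13 ZNF genes listed as repressors of transposons or of ZNF genes themselves, 4 were in the table. All 4 fell, with a median log2 fold change of -0.78, where 76.3% of all 93 ZNF genes and 49.4% of all genes tested fell. The 4 were ZNF10, described above, ZNF43, ZNF765 and ZNF274. ZNF274, which recruits SETDB1 to the 3′ ends of ZNF genes, was measured at 719.9 and 724.2 in shctrl and at 520.5 and 559.1 in shUSP2-AS1 (log2 fold change -0.42). ZNF43 went from 63.77 and 92.31 to 39.96 and 37.86, and ZNF765 from 206.8 and 238.5 to 145.1 and 148.8.

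Of 9 ZNF genes listed for cancer and development, 4 were in the table. ZNF217, a breast cancer oncogene that works with the CtBP corepressor, was measured at 1692 and 1778 in shctrl and at 1452 and 1425 in shUSP2-AS1. ZNF687 went from 975.9 and 1004 to 804.5 and 845.2, and ZNF395, a hypoxia-induced factor, from 260.9 and 276.9 to 152.5 and 169.0. These 3 fell, whereas ZNF703, an oncogene of luminal breast cancer, rose from 338.2 and 316.5 to 437.5 and 434.0 (log2 fold change 0.41). Among all 93 ZNF genes 76.3% fell, and among all genes tested 49.4%. ZNF395 shares 35.0% of its exonic bases with FBXO16, so its value is less certain.

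Per kb of gene length, ZNF146, a protein that consists almost wholly of zinc fingers, had the highest level of the family in both groups, with a mean of 681 normalized reads per kb in shctrl and 490 in shUSP2-AS1. In shctrl ZNF579 followed with 313 and ZNF598 with 304, which were at 260 and 200.5 in shUSP2-AS1. In shUSP2-AS1 ZNF385A stood second, at 372.5 against 113.6 in shctrl. The libraries of ZNF146 were at 2819 and 2829 in shctrl and at 1965 and 2100 in shUSP2-AS1, and its log2 fold change was -0.47. The 3 genes with the highest level per kb in shctrl all fell, as did 76.3% of the 93 ZNF genes. A ranking by the shctrl level favours genes that fell, so their direction adds nothing.

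The listed partners through which KRAB zinc finger proteins act were also read. Of 28 genes of the TRIM28, HUSH and NuRD complexes on the lists, 18 were in the table, and all 18 fell, where 49.4% of all genes tested did, with a median log2 fold change of -0.47 and a range of -1.19 to -0.25. TRIM28 itself was the only one of the 18 called at 2-fold, against 13.5% of all genes tested. Its normalized read count had a mean of 17280 ± 235 (SD, n = 2) in shctrl and of 7558 ± 154 (SD, n = 2) in shUSP2-AS1, with both libraries of shUSP2-AS1, at 7448 and 7667, far below both controls. Its log2 fold change was -1.19 ± 0.05 (SE), limma adjusted p = 2.97e-13. TRIM28, also on chromosome 19, had far more reads than any listed ZNF gene.

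Of the other TRIM28 partners, the HP1 genes CBX1, CBX3 and CBX5, the remodeler SMARCAD1 and the SETDB1 cofactor ATF7IP fell. CBX1 was measured at 2079 and 2063 in shctrl and at 1283 and 1439 in shUSP2-AS1. Of the HUSH list, which silences young transposons and genes without introns, PPHLN1, TASOR and MORC2 fell with log2 fold changes of -0.48 to -0.42. Of 13 NuRD genes 9 were in the table and all 9 fell, from HDAC2 at -0.83 to HDAC1 at -0.25.

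The enzymes that keep DNA and histone methylation through replication showed larger changes. Of 9 on the list 6 were in the table, of which 5 fell at least 2-fold, against 13.5% of all genes tested, and DNMT3A, a de novo DNA methyltransferase, rose with a log2 fold change of 0.33, which was past the adjusted p with limma and not with DESeq2 (log2 fold change 0.21). UHRF1, which brings DNMT1 to newly copied DNA, was measured at 2213 and 2386 in shctrl and at 511.1 and 575.8 in shUSP2-AS1. DNMT1 went from 3396 and 3553 to 1385 and 1441, and HELLS, a remodeler needed for DNA methylation, from 1063 and 968.2 to 368.1 and 393.5. The H3K9 methyltransferases SUV39H1 and SUV39H2 fell as well.

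**Figure D5:**
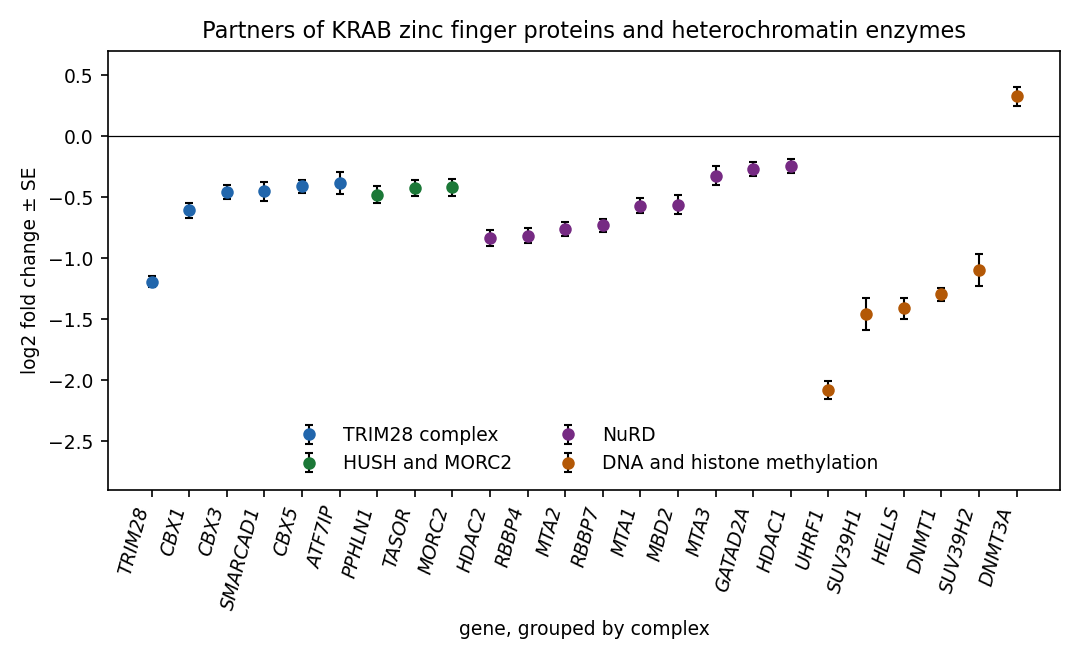
Log2 fold change of shUSP2-AS1 against shctrl with its SE (y axis) for the listed genes (x axis) of the TRIM28 complex (blue), HUSH and MORC2 (green), NuRD (purple) and DNA and histone methylation (orange). All 18 genes of the first 3 lists lie below 0, with TRIM28 the lowest of these at -1.19, and DNMT3A is the only point above 0.

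Marker genes were read beside these results. Of 8 lung epithelial line markers 5 were in the table, with KRT8, KRT18 and KRT7 lower and KRT19 and AKR1B10 higher, and KRT7 and KRT8 remained abundant in all 4 libraries. None of 5 leukocyte and none of 3 endothelial markers was listed. Since only genes past the submitters' threshold are listed, this does not show that these markers were absent. Of 4 fibroblast markers, COL1A1 was listed at 260.9 and 293.4 in shctrl and 530.0 and 618.1 in shUSP2-AS1, and LUM at 1.933 and 1.099 and at 25.24 and 15.85, which is 1 or 2 reads per shctrl library. Both were higher in the knockdown libraries, and their part in the ZNF result was not tested.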

How the data were processed

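RNA of A549 cells was sequenced in 4 libraries, 2 per group. The submitters' processing notes name HISAT2 (version 2.0.5), featureCounts (version 1.5.0-p3), DESeq2 (version 1.20.0) and hg38. For each gene the authors deposited one normalized signal (reads over a size factor) per library, besides their own comparison (its fold change and raw and adjusted p-value). Those last columns were not used, except to test that all 6828 rows have an adjusted p-value below 0.05. Genes outside the table were not analysed here. Columns were given to groups by name, scr as the scrambled control and sh216 as the knockdown.

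Values divided by the value of 1 read (0.966, 1.10, 1.05 and 0.88) were whole in 100% of cases within 0.01. On these reads edgeR (version 4.0.16) called 923 genes lower and 1099 higher, and limma on the deposited values 922 and 1098. Limma (version 3.58.1, R version 4.3.3) was fitted to log2(value + 1) of the 6812 genes with a mean of at least 10, with lmFit and eBayes with a trend, in place of a count model. A fold change is on the log2(value + 1) scale. A call required a Benjamini-Hochberg adjusted p under 0.05 over all tested genes together with a change of 2-fold or more. The fit was tested on simulated data. Spread between replicates exceeded counting noise (chi-square per degree of freedom of 3.72 in shctrl and 3.83 in shUSP2-AS1), and the ZNF genes had 20 to 3186 reads per library. The median CV between replicates was 4.22%.

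Named ZNF genes were up to 10 with the largest change in each direction (called, mean of at least 50, groups not overlapping), the listed members of the role lists, the 3 highest per kb and the extreme genes of the chromosome 19 group described. Others were named after their values were seen: ZNF614, ZNF519 and ZNF256 to complete the called genes, ZNF862 and the members of the neighbouring groups. The members and lists were chosen with earlier results of these data known. All 93 ZNF genes matched GENCODE release 44. A planned search of protein sequences for fingers and KRAB was not run, and the deposited domain annotation was used in its place. The alternatives were 3 scalings (TMM, RLE, upper quartile), a pseudocount of 0.1, no filter, a mean of at least 100, a replicate block, edgeR, DESeq2 (version 1.42.0), a test against a log2 fold change of 1 and each library left out.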

Additional observations from a re-analysis of the deposited data

How the results depend on the processing

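All 93 ZNF genes and all 18 corepressor genes kept their direction in each alternative that gave them a value, and 71 fell and 22 rose past the adjusted p in each that tested them all, other than the test against a log2 fold change of 1. With a mean of at least 100, 64 fell and 20 rose. RLE scaling shifted the median of all genes by -0.12, TMM by -0.01 and upper quartile by 0.06. The factors of these scalings and of DESeq2 were computed from listed genes alone, which all passed the submitters' threshold. They therefore had no set of unchanged genes to rest on, unlike the size factor already in the deposited values. Whether the shifts with RLE and DESeq2 below come from this choice of genes was not tested. The ZNF median of -0.50 became -0.62 with RLE and -0.61 with DESeq2, and -0.54 to -0.47 with a library left out. Called ZNF genes, 13 lower and 3 higher, became 8 and 1 with a mean of at least 100, 3 and 1 in the test against a log2 fold change of 1, 17 and 2 with RLE and with DESeq2, and 14 and 3 with edgeR, and 5 were higher with upper quartile scaling. With a library left out they were 13 lower each time and 3 to 4 higher. Of all genes, 922 were called lower and 1098 higher, and the test against a log2 fold change of 1 called 523 and 541. The balance turned to 1143 and 934 with RLE, to 1140 and 942 with DESeq2 and to 715 and 648 with a mean of at least 100. The ZNF median minus that of other protein-coding genes went from -0.69 to -0.27 with a mean of at least 100, where the other genes' median turned to -0.22, and fewer genes of low level were tested. The chromosome 19 minus other median of -0.18 ranged from -0.28 to -0.12 with a library left out. Of 414 recomputed values of the 30 ZNF genes named by rule, 388 kept their side of the adjusted p of 0.05. The 26 that did not were all in the test against a log2 fold change of 1. Outside this set, DNMT3A and ZBTB7A were not past it with DESeq2. The 2-fold side was less stable: ZNF10 (-0.99), ZNF551 (-0.996) and ZNF614 (-0.95) lost it with upper quartile scaling, ZNF117 with RLE (0.93) and DESeq2 (0.94), ZNF10 (-0.97) and ZNF551 (-0.97) without shUSP2-AS1 replicate 1, ZNF117 (0.96), ZNF614 (-0.84) and ZNF624 (-0.83) without shUSP2-AS1 replicate 2, ZNF256 (-0.96), ZNF551 (-0.97) and ZNF624 (-0.99) without shctrl replicate 1, and ZNF117 (0.88) without shctrl replicate 2, and 6 other ZNF genes gained it in at least 1 alternative. The replicate block changed no call, with 13 ZNF genes lower and 3 higher, and 922 and 1098 genes of all, and as same-numbered libraries did not deviate together (r = -0.04 across genes, which are not independent replicates), they share only a number. The search of protein sequences and its stricter pattern were not run. USP2-AS1, at 2 to 24 reads per library, is measured with less precision than the ZNF genes.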

Other observations

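Other zinc finger families were also read, and their difference from the ZNF genes was not tested. Of 10 listed KLF genes, factors with a C2H2 domain at the C-terminus, 3 fell and 7 rose, and 5 rose at least 2-fold. Among all genes tested 49.4% fell and 50.6% rose, and 16.1% rose at least 2-fold. KLF7 was measured at 556.6 and 555 in shctrl and at 1546 and 1469 in shUSP2-AS1, KLF2 at 441.6 and 502.2 and at 1201 and 1268, and KLF4 at 343 and 330.8 and at 882.3 and 862.8. KLF16, KLF10 and KLF5 were the KLF genes that fell, with log2 fold changes of -0.73, -0.39 and -0.32. The 3 listed genes of the related SP factors, SP1, SP3 and SP4, fell, of which SP4 was measured at 113.1 and 105.5 in shctrl and at 51.53 and 38.74 in shUSP2-AS1.

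Of 6 listed ZBTB genes, which join a BTB domain to C2H2 fingers, 3 fell and 3 rose. This is near the 49.4% and 50.6% of all genes tested. ZBTB7A, one of those that rose, was not past the adjusted p with DESeq2 (log2 fold change 0.18). Of 7 listed genes with a ZFP or ZSCAN symbol 5 fell (71.4%) and 2 rose, with a median log2 fold change of -0.51. The C2H2 genes among them, ZSCAN2, ZFP82, ZFP41 and ZFP91, fell with log2 fold changes of -0.92, -0.92, -0.51 and -0.45, and ZFP82, a KRAB gene on chromosome 19, went from 106.3 and 106.6 in shctrl to 50.48 and 61.63 in shUSP2-AS1. ZFP36, ZFP36L1 and ZFP36L2 carry CCCH fingers and promote the decay of AU-rich mRNAs. ZFP36 rose from 1276 and 1281 to 2424 and 2371, and ZFP36L1 from 4245 and 4399 to 7006 and 6959, while ZFP36L2 fell. These families were chosen after earlier results of these data were known.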
